A study of Mus musculus with 8 samples.

Results

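Endothelial cells (ECs) set the tone of the vessel wall through a small set of released mediators, and 10 genes that make, activate, receive or break down these mediators were followed in mouse brain ECs that express activated MAP2K1. The genes were listed by name and were *Nos3*, *Edn1*, *Ece1*, *Ednrb*, *Ptgs1*, *Ptgs2*, *Ptgis*, *Ace*, *Npr1* and *Ddah1*. They are 10 of the 49315 genes with a deposited count, and all 10 passed the filter on low counts that left 16887 genes for testing. MAP2K1 is a kinase of the RAS pathway that activates ERK, and the mutant form K57N has been found in ECs of human arteriovenous malformations.

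Nitric oxide, made from arginine by the endothelial synthase encoded by *Nos3*, and prostacyclin, made from arachidonic acid by a cyclooxygenase and then by prostacyclin synthase, relax smooth muscle and restrain platelets. Endothelin, cut from its precursor by endothelin converting enzyme, contracts smooth muscle through one receptor and, through the EC receptor encoded by *Ednrb*, is cleared and evokes release of nitric oxide and prostacyclin. Angiotensin converting enzyme makes angiotensin II and inactivates bradykinin, and the natriuretic peptide receptor encoded by *Npr1* makes cyclic GMP.

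The mutant group held 4 pups with 1 R26 GT-Map2k1-GFP allele and the Tg-Cdh5CreER transgene, and the control group held 4 pups that the labels call wild type. The study's own descriptions of the controls differ, and one of them gives the control as carrying Tg-Cdh5CreER, so whether these pups carried the transgene is not settled and an effect of CreER itself cannot be told apart from that of the mutant allele. Every pup received tamoxifen at postnatal day 1 (P1), ECs were isolated from the whole brain at P9 with beads that bind CD31, and each pup gave 1 library. Cre was active under the *Cdh5* promoter, the mutant cDNA was driven by a strong CAG promoter in the *Rosa* locus, and by the study's DNA assay only a minority of the isolated ECs carried the recombined allele, so each mutant library is a mixture of recombined and unrecombined cells. No control expressed wild-type MAP2K1 from the *Rosa* locus. The methods draw the controls from the litters of the mutants, on a C57BL/6J background.

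Libraries held 24833373 to 34196955 counts on genes. *Map2k1*, whose counts include the transgene, had 12660 to 18687 normalized counts in mutant and 1502 to 1758 in wild-type libraries, so the labels fit the transgene. Normalized counts are counts scaled by edgeR's TMM factors to the mean library size. The 10 endothelial markers summed to 362629 to 439353 normalized counts in mutant and 341184 to 413553 in wild-type libraries, and none was at 0 in any library. The similar sums held changes in opposite directions, with *Cdh5* (log2 fold change 1.11), *Emcn* (0.82) and *Pecam1* (0.53) higher, *Kdr* (-0.59), *Cldn5* (-0.47) and *Tek* (-0.44) lower and 4 markers not called. Markers of other cells were also present. The red blood cell list had 5 of 5 genes lower in mutant libraries, the oligodendrocyte lineage list 6 of 6 and the neuron list 4 of 6, while the microglia and macrophage list had 0 of 8 called. In these bulk libraries fewer cells of a type and less RNA per cell cannot be told apart.

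**Figure D1:**
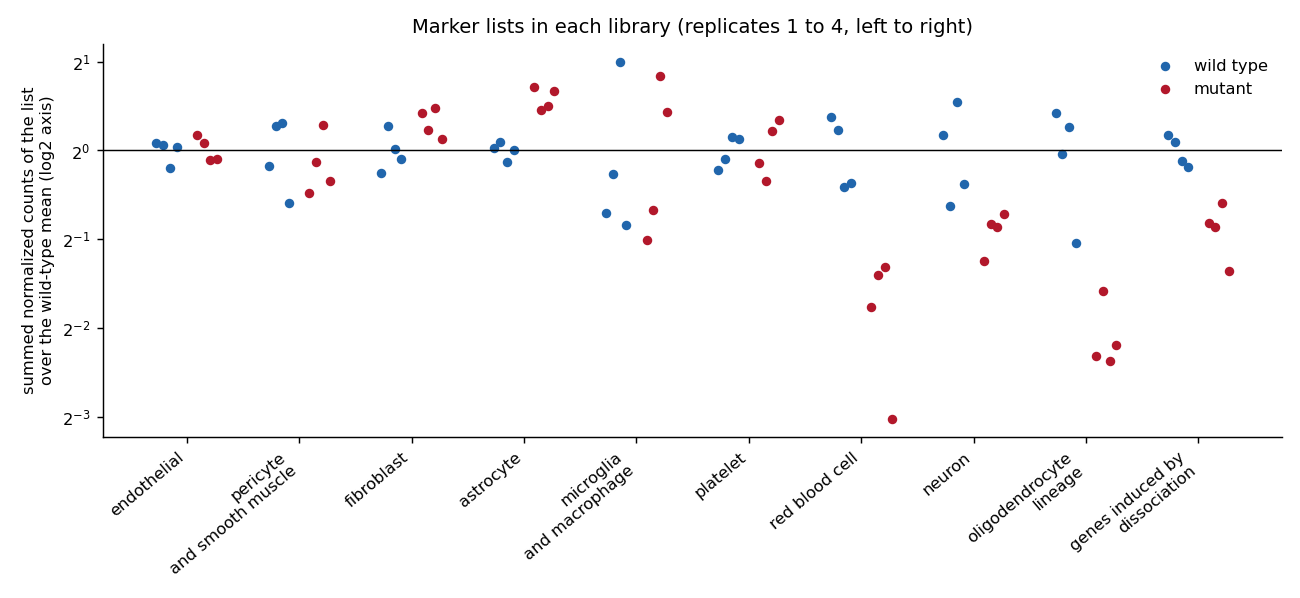
Summed normalized counts of each marker list in each library, divided by the mean of the wild-type libraries, on a log2 axis, with 1 point per pup. The red blood cell and oligodendrocyte lists and the genes induced by dissociation lie lower in all 4 mutant libraries than in any wild-type library, as does the neuron list, and the microglia list is highest in replicate 3 of each group.

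Of the 10 genes, *Ptgs2*, *Ptgs1*, *Ptgis* and *Ednrb* rose in mutant ECs and *Nos3* and *Edn1* fell, whereas *Ece1*, *Ace*, *Npr1* and *Ddah1* did not pass the test (edgeR's quasi-likelihood test, adjusted p under 0.05 over all genes). The difference between genotypes was wide in these libraries, with 44.4% of all genes tested called at this threshold (21.5% higher and 22.9% lower). The 6 of 10 members called, 4 higher and 2 lower, have to be read against those shares. The ranges of the groups were separate for 5 of the 10 members, against 42.5% of all genes tested, with every mutant above every wild type for 3 members (20.6% of all genes) and below for 2 (21.9%). *Ptgs2* alone changed more than 2-fold, where 5.90% of all genes rose and 8.05% fell by that much, and *Ednrb* passed 2-fold as well when wild type replicate 3 was left out (log2 fold change 1.07).

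**Figure D2:**
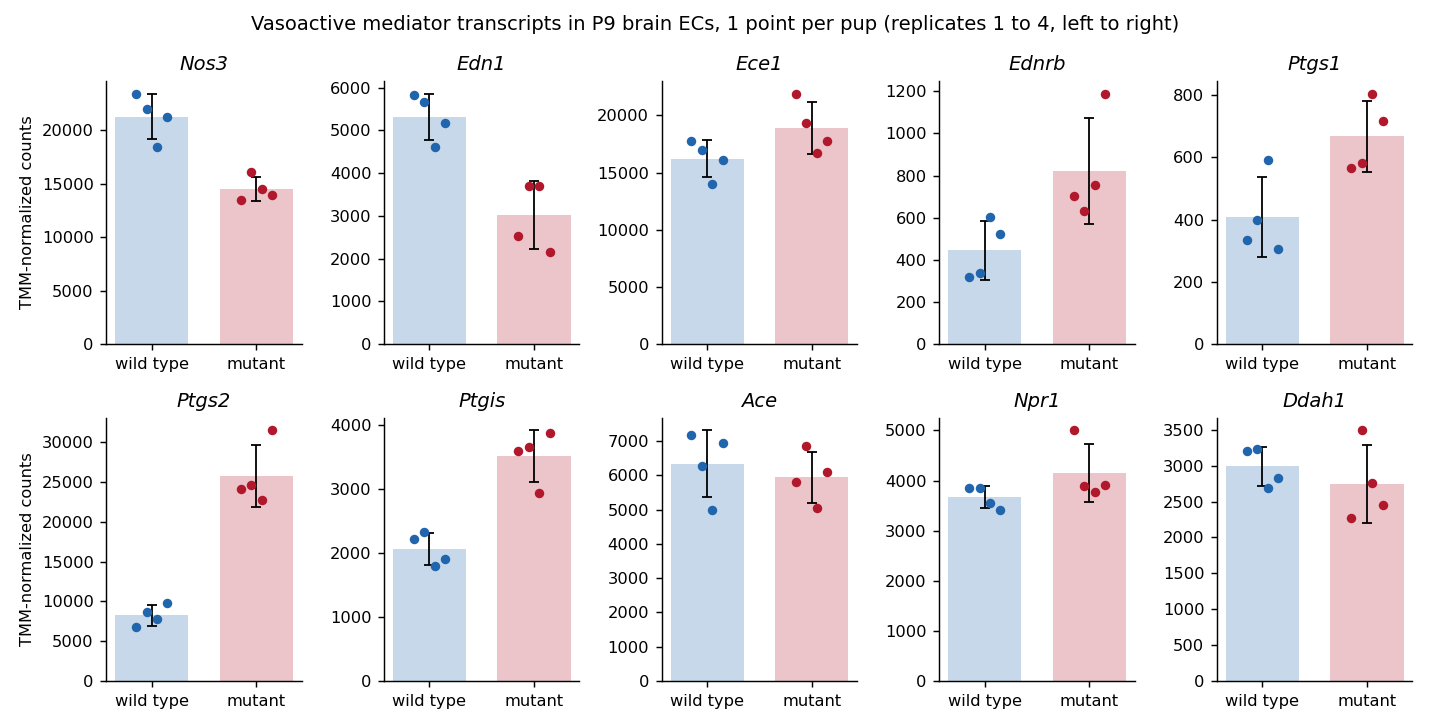
Normalized counts of the 10 genes in each pup, with bars at the group mean and error bars of 1 SD (n = 4), each axis starting at 0. *Ptgs2*, *Ptgis* and *Ednrb* lie higher in every mutant than in every wild-type library, *Nos3* and *Edn1* lower, and the groups overlap for the other 5 genes.

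**Figure D3:**
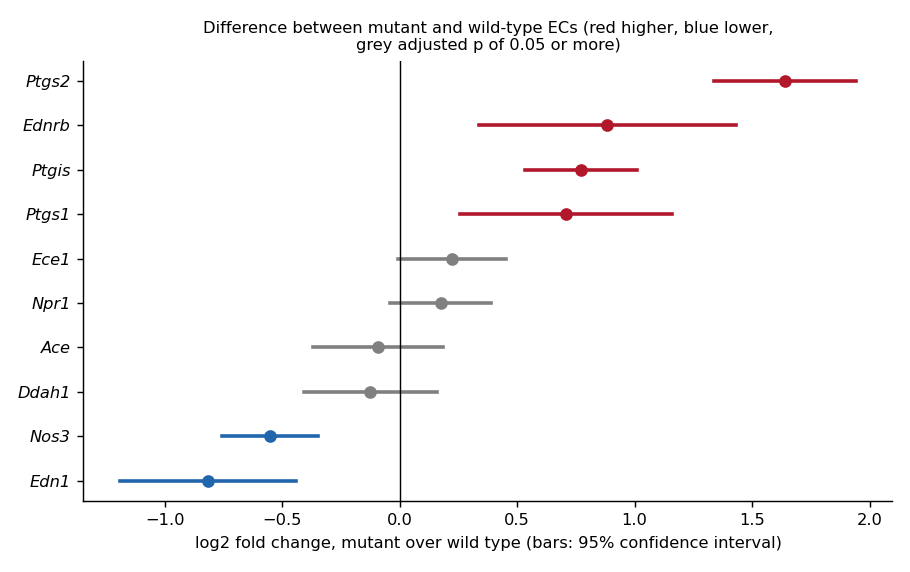
Fitted log2 fold change of mutant over wild type for the 10 genes with its 95% confidence interval. The interval of *Ptgs2* runs from 1.34 to 1.94, and those of *Ece1*, *Npr1*, *Ace* and *Ddah1* include 0.

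The sequences before the start sites are shown for *Ptgs2*, *Ptgs1* and *Ednrb*, the called members whose window holds no exon of a protein-coding gene. Each window covers the 250 bases before a RefSeq start in build GRCm38.p6, written 5′ to 3′ on the strand of the gene. The annotation of the deposited counts starts *Ednrb* further upstream, at 103844173. The window of *Ednrb* therefore lies within the gene in that annotation, outside its exons. Capitals mark the shear stress responsive element GAGACC, read on either strand. The window of *Ptgs2* is chr1:150099781-150100030 on the plus strand, that of *Ptgs1* is chr2:36230176-36230425 on the plus strand and that of *Ednrb* is chr14:103843702-103843951 on the minus strand.
Ptgs2: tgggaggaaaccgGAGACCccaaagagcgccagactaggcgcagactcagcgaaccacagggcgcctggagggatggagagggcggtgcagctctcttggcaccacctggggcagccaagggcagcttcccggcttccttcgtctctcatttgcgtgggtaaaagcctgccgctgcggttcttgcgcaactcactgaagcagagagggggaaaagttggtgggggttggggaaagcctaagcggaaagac
Ptgs1: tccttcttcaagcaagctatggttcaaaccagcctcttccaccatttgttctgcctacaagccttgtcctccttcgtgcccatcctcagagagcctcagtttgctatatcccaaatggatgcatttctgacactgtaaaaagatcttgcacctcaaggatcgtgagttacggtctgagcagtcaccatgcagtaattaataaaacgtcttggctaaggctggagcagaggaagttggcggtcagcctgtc
Ednrb: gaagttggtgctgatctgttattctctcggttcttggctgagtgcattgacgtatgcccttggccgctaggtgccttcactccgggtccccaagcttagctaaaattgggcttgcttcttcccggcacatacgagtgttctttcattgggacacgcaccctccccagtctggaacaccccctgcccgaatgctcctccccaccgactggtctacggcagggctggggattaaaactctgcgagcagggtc
GAGACC was found once, 237 bases before the start of *Ptgs2*, and is present in 13.7% of all 32851 windows of this length. It was also found 98 bases before the start of *Edn1*, but that window is not shown, because 206 of its 250 bases, the match among them, lie in an exon of *Edn1* in the annotation of the deposited counts, which starts the gene further upstream. Neither the AP-1 motif TGANTCA, which 6.75% of all windows hold, nor the ETS motif CCGGAAG, held by 6.91%, was found on either strand in the 12 windows of the 8 members with an entry. No entry was given for *Nos3* and *Ptgis*. The motifs do not overlap each other in these windows, and a match is a match of letters only. The window of *Ptgs1* was poorer in G and C (48.0%) than those of *Ptgs2* (61.6%) and *Ednrb* (56.8%).

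*Ptgs2* showed the largest change of the 10 members. *Ptgs2* (ENSMUSG00000032487), on chromosome 1 of GRCm38 from 150100031 to 150108227, encodes the inducible cyclooxygenase, which makes the prostaglandin precursor PGH. It had 24152, 24616, 22738 and 31532 normalized counts in mutants 1 to 4 and 6812, 8670, 7737 and 9840 in wild types 1 to 4. Every mutant library held more than any wild-type library, and mutant 4 and wild type 4 were the highest of their groups. The group means were 25760 ± 3930 (SD, n = 4) and 8265 ± 1296 (SD, n = 4), a 3.12-fold difference (log2 fold change 1.64, standard error 0.14, edgeR adjusted p = 1.4e-05). Per length, *Ptgs2* moved from the fourth place among the 10 members in wild-type ECs to the first place in mutant ECs.

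*Ptgs1* (ENSMUSG00000047250), on chromosome 2 from 36230426 to 36252272, encodes the constitutive cyclooxygenase and was far less abundant. The mutant libraries held 566, 582, 805 and 715 normalized counts and the wild-type libraries 335, 400, 592 and 305. Wild type 3 reached into the range of the mutants, and the other wild-type libraries lay below it. The difference was 1.63-fold (log2 fold change 0.71, standard error 0.20, edgeR adjusted p = 0.0164). *Ptgs1* is also expressed by microglia and platelets, and in each group the library with the most *Ptgs1*, replicate 3, was the one with the most summed microglia and macrophage markers (16853 normalized counts in mutant 3 and 18867 in wild type 3). That list ran from 4696 to 16853 in mutants and from 5270 to 18867 in wild types, with 0 of 8 genes called. Without both replicate 3 libraries the log2 fold change of *Ptgs1* was 0.85 (edgeR adjusted p = 0.00189). That fit did not balance the microglia and macrophage list. Its sums were 4696, 5941 and 12770 in mutants 1, 2 and 4. In wild types 1, 2 and 4 they were 5797, 7842 and 5270. Of the same-numbered libraries, those of replicate 4 differed most in this list and in *Ptgs1* (715 against 305). The platelet list summed to 361 to 584 in mutants and 394 to 510 in wild types, with 1 of 6 genes lower. All 14 genes of the microglia and platelet lists were above 0 in every library, and their part in the difference of *Ptgs1* was not tested.

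*Ptgis* (ENSMUSG00000017969), on chromosome 2 from 167191805 to 167240604, encodes prostacyclin synthase, which turns the product of the cyclooxygenases into prostacyclin. It had 3601, 3652, 2936 and 3870 normalized counts in mutants and 2219, 2325, 1792 and 1900 in wild types. The groups did not overlap, and replicate 3 was the lowest library of each. *Ptgis* rose 1.71-fold (log2 fold change 0.77, standard error 0.11, edgeR adjusted p = 2.94e-04). The fibroblast marker list had 2 of 5 genes higher and 1 lower. It summed to 26987 to 34260 normalized counts in mutants and 20720 to 29755 in wild types. The part of other cells in the rise of *Ptgis* was not tested.

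Among the other prostanoid genes, 16 of 20 were tested, of which 3 were higher, 4 lower and 9 not called. The median log2 fold change of the list was -0.021, beside -0.025 over all genes tested. *Slco2a1*, which encodes the prostaglandin transporter, rose from 3919 ± 156 to 8571 ± 933 normalized counts (SD, n = 4 each; log2 fold change 1.13, standard error 0.087, edgeR adjusted p = 9.51e-06). *Ptgds*, which encodes a prostaglandin D synthase abundant in oligodendrocytes and the meninges, fell from 209 ± 124 to 39.1 ± 20.9 (SD, n = 4 each; log2 fold change -2.40, standard error 0.49, edgeR adjusted p = 0.00266). The oligodendrocyte lineage list fell beside it, with 6 of 6 genes lower and sums of 1263 to 2181 in mutants against 3182 to 8759 in wild types, and its part was not tested. The genes of smaller change that are named next were chosen after their values were seen. *Pla2g4a*, whose phospholipase frees arachidonic acid, rose with a log2 fold change of 0.94 (from 308 to 591 normalized counts), and *Ptges3* rose by 0.47. *Ptges*, the inducible prostaglandin E synthase, fell from 6505 to 4194 normalized counts (log2 fold change -0.63). The receptor genes *Ptger4* (-0.53) and *Tbxa2r* (-0.77) completed the genes that fell, and each lost its call when any of 4 or 5 single libraries was left out.

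*Nos3* (ENSMUSG00000028978), on chromosome 5 from 24364810 to 24384474, was the most abundant member per length in wild-type ECs. It had 13504, 16069, 14478 and 13976 normalized counts in mutants and 23414, 21944, 18421 and 21268 in wild types. The highest mutant library lay below the lowest wild-type library. *Nos3* was 1.47-fold lower in mutant ECs (log2 fold change -0.55, standard error 0.092, edgeR adjusted p = 8.35e-04). The exons of *Nos3* share 1040 bases with the antisense gene *Gm15587* and 294 bases with *Atg9b* on the other strand, and the sources used here do not state whether counting used the strand, so reads there cannot be assigned with certainty. *Gm15587* itself had 551 ± 86.4 normalized counts in mutants and 1076 ± 74.3 in wild types (SD, n = 4 each; log2 fold change -0.97, edgeR adjusted p = 1.02e-04), few beside those of *Nos3*. Since the counting program is not given either, these counts do not bound the effect of the shared bases on the count of *Nos3*.

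*Ddah1* (ENSMUSG00000028194), on chromosome 3 from 145758675 to 145894277, encodes an enzyme that degrades asymmetric dimethylarginine, an inhibitor of nitric oxide synthases. Mutant libraries had 2275, 3495, 2758 and 2446 normalized counts and wild-type libraries 3208, 3235, 2684 and 2835. Mutant 2 was the highest and mutant 1 the lowest of all 8 libraries, so the mutants enclosed the wild types. The log2 fold change of -0.12 had a 95% confidence interval from -0.41 to 0.16 (edgeR adjusted p = 0.454).

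All 24 other genes of the nitric oxide list were tested, of which 3 were higher, 8 lower and 13 not called, and the median log2 fold change was -0.13. *Slc7a1*, which encodes a cationic amino acid transporter that brings arginine into the cell, fell from 58536 ± 4409 to 17847 ± 4901 normalized counts (SD, n = 4 each; log2 fold change -1.71, standard error 0.17, edgeR adjusted p = 4.65e-05). *Ass1*, an enzyme that regenerates arginine from citrulline, fell from 533 ± 63.6 to 191 ± 68.9 (SD, n = 4 each; log2 fold change -1.47, edgeR adjusted p = 9.5e-04). *Nos2*, the inducible synthase, fell from 1933 ± 291 to 699 ± 255 (SD, n = 4 each; log2 fold change -1.47, edgeR adjusted p = 5.52e-04). *Arg1*, an arginase that competes for the same substrate, rose from 27.4 ± 7.88 to 71.1 ± 31.8 (SD, n = 4 each; log2 fold change 1.37, edgeR adjusted p = 0.0114). Mutant 2 lay within the range of the wild types for *Arg1*. Among mutants *Arg1* was highest in 3 and 4 (98.4 and 94.6), which held the largest microglia and macrophage sums (16853 and 12770). Among wild types it was highest in 3 (38.8), which held the largest sum there (18867). The other libraries did not follow this order, and the part of that list was not tested. *Cygb*, whose globin can consume nitric oxide and which is expressed in perivascular cells, rose from 57.0 ± 20.3 to 130 ± 31.2 (SD, n = 4 each; log2 fold change 1.18, edgeR adjusted p = 0.00562). The pericyte and smooth muscle list had 3 of 12 genes higher and none lower, with sums of 23601 to 40058 in mutants and 21845 to 40835 in wild types, and its part was not tested. Named after their values were seen, *Gch1* (-0.39), needed for the cofactor of the synthases, *Ddah2* (-0.42), the paralog of *Ddah1*, the chaperone gene *Hsp90aa1* (-0.47), *Pde5a* (-0.78), whose product breaks down cyclic GMP, and the neuronal synthase *Nos1* (-0.57) fell. The methyltransferase gene *Prmt1*, whose product makes asymmetric dimethylarginine in proteins, rose (0.77, all log2 fold changes). *Nos1* lost its call when any of 3 single libraries was left out, mutant 1, mutant 4 or wild type 1, and the neuron list fell beside it (575 to 829 against 880 to 1986 summed normalized counts). *Cav1*, *Nostrin* and the soluble guanylate cyclase genes *Gucy1a1* and *Gucy1b1* were not called.

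The endothelin ligand and its EC receptor moved in opposite directions. *Edn1* (ENSMUSG00000021367), on chromosome 13 from 42301270 to 42307989, encodes the endothelin precursor. It had 2523, 3703, 3710 and 2161 normalized counts in mutants and 5826, 5659, 4614 and 5171 in wild types. The groups did not overlap, and the mutants fell into a lower pair, 1 and 4, and a higher pair, 2 and 3. *Edn1* was 1.76-fold lower in mutant ECs (log2 fold change -0.81, standard error 0.17, edgeR adjusted p = 0.00304). *Edn1* and *Ptgs2* are genes that cells can induce within minutes to hours of a stimulus, and the list of genes induced by cell dissociation, such as *Fos* and *Jun*, had 9 of 11 genes lower in mutant libraries. That list summed to 153097 to 260270 normalized counts in mutants and 344959 to 442378 in wild types, so *Edn1* moved with it and *Ptgs2* against it. By the study's introduction, ERK also stimulates expression of c-FOS and c-JUN. Effects of dissociation and of the mutant allele on this list cannot be told apart. The part of the list in either difference was not tested.

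*Ednrb* (ENSMUSG00000022122), on chromosome 14 from 103814625 to 103844173, had 704, 633, 757 and 1189 normalized counts in mutants and 319, 336, 601 and 525 in wild types. The groups came close to each other, at 633 in mutant 2 and 601 in wild type 3, and did not overlap. *Ednrb* rose 1.85-fold (log2 fold change 0.88, standard error 0.25, edgeR adjusted p = 0.0142), with a range of 0.67 to 1.11 over the alternatives tried. Astrocytes and mural cells also express *Ednrb*. Of the 8 astrocyte markers, *Gja1*, a gap junction gene that ECs share, was higher, *Aldh1l1* and *Sox9* were lower and 5 were not called, among them *Gfap* and *Aqp4*. The list summed to 18796 to 22418 normalized counts in mutants and 12526 to 14560 in wild types, nearly all of it *Gja1*. Of the 12 pericyte and smooth muscle markers, *Abcc9* (log2 fold change 1.78), *Kcnj8* (0.81) and *Tagln* (0.73) were higher, none was lower and 9 were not called. That list summed to 23601 to 40058 normalized counts in mutants and 21845 to 40835 in wild types. The part of other cells in the rise of *Ednrb* was not tested.

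*Ece1* (ENSMUSG00000057530), on chromosome 4 from 137862237 to 137965229, encodes the converting enzyme that releases active endothelin. Mutants held 21909, 19345, 16713 and 17744 normalized counts and wild types 17749, 16985, 13995 and 16141. Mutants 1 and 2 were above all wild types, and mutants 3 and 4 were within their range. The log2 fold change was 0.22 with a 95% confidence interval from -0.0089 to 0.45 (edgeR adjusted p = 0.108). With the replicate number as a block it was 0.22 with an edgeR adjusted p of 0.0233.

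Of the 6 other endothelin genes, 4 were tested, of which 2 were higher, 1 lower and 1, the smooth muscle receptor gene *Ednra*, not called (median log2 fold change 0.67). *Mme*, whose product neprilysin degrades endothelin, bradykinin and natriuretic peptides, showed the largest change of any gene in the pathway lists. It rose from 32.5 ± 11.2 to 298 ± 48.1 normalized counts (SD, n = 4 each; log2 fold change 3.18, standard error 0.24, edgeR adjusted p = 7.21e-06). *Edn3*, another endothelin, fell from 1108 ± 166 to 503 ± 185 (SD, n = 4 each; log2 fold change -1.14, edgeR adjusted p = 0.00375). *Ece2*, named after its value was seen, rose with a log2 fold change of 0.91.

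*Ace* (ENSMUSG00000020681), on chromosome 11 from 105967945 to 105989964, had 5802, 6858, 5056 and 6090 normalized counts in mutants and 7166, 6271, 4986 and 6932 in wild types. The ranges of the groups overlapped over most of their width. The log2 fold change of -0.091 had a 95% confidence interval from -0.37 to 0.19 (edgeR adjusted p = 0.582). In the angiotensin and kinin list, 10 of 17 genes were tested, of which 2 were higher, none lower and 8 not called (median log2 fold change 0.24). *Bdkrb2*, the bradykinin receptor through which ECs release nitric oxide and prostacyclin, rose from 108 ± 10.04 to 319 ± 78.2 normalized counts (SD, n = 4 each; log2 fold change 1.56, standard error 0.19, edgeR adjusted p = 1.17e-04). *Lnpep*, named after its value was seen, rose with a log2 fold change of 0.27.

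*Npr1* (ENSMUSG00000027931), on chromosome 3 from 90450591 to 90465866, had 5003, 3889, 3763 and 3911 normalized counts in mutants and 3856, 3852, 3544 and 3415 in wild types. Mutant 1 stood above all other libraries, mutants 2 and 4 lay just above the highest wild type, and mutant 3 lay within the range of the wild types. The log2 fold change of 0.18 had a 95% confidence interval from -0.040 to 0.39 (edgeR adjusted p = 0.167). Of the 7 other natriuretic peptide genes, 4 were tested and only *Furin* was called (log2 fold change 0.29). The peptide genes *Nppa*, *Nppb* and *Nppc* were too low to be tested.

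A further list held adrenomedullin and apelin, which also dilate vessels, with 8 of 10 genes tested, 2 higher, 2 lower and 4 not called (median log2 fold change -0.090). *Ramp3*, a partner protein of the adrenomedullin receptor, rose from 221 ± 62.1 to 699 ± 199 normalized counts (SD, n = 4 each; log2 fold change 1.67, standard error 0.23, edgeR adjusted p = 3.02e-04). Its paralog *Ramp2* fell from 7559 ± 747 to 4875 ± 641 (SD, n = 4 each; log2 fold change -0.63, edgeR adjusted p = 0.001), and was chosen after its value was seen. *Calcrl*, the receptor that both partners serve, was not called (log2 fold change -0.021). Also chosen after their values were seen, the apelin gene *Apln* fell (log2 fold change -0.36) and its receptor gene *Aplnr* rose (0.44, edgeR adjusted p = 0.045), with a call that held in 9 of 17 alternatives. It was lost when any of 5 single libraries was left out, with upper quartile scaling, with total counts and without both replicate 3 libraries. Over all 6 pathway lists, 66 of 84 genes were tested, and 13 were higher and 15 lower, 42.4% of those tested against 44.4% of all genes.

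**Figure D4:**
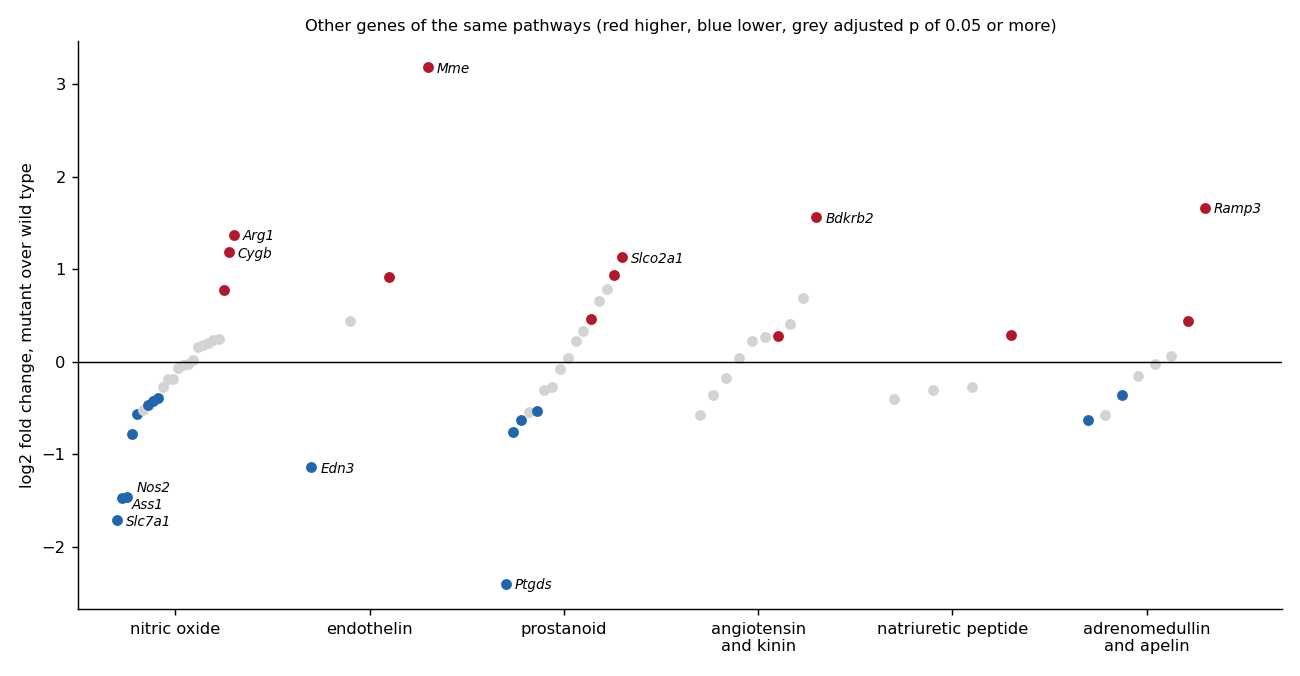
Log2 fold change of each tested gene in the 6 pathway lists, ordered by value within a list, with the genes that changed more than 2-fold named. *Mme* stands at 3.18, *Slc7a1* at -1.71 and *Ptgds* at -2.40.

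Ratios within a library do not depend on the scaling between libraries. They were used to ask whether members that act at the same step or at neighbouring steps moved unequally. Levels per length are given in RPKM, counts per kilobase of exon scaled to a common library size. The ratio of *Edn1* to *Ece1* was 0.260, 0.433, 0.502 and 0.275 in mutants and 0.742, 0.753, 0.745 and 0.724 in wild types. The wild types were within a narrow band, and every mutant lay below it (log2 difference -1.07, exact two-sided permutation p = 0.0286, adjusted p = 0.0429 over 3 pairs). The ratio of *Ddah1* to *Nos3* had a median of 0.190 in mutants and 0.147 in wild types, with no overlap (log2 difference 0.41, exact two-sided permutation p = 0.0286, adjusted p = 0.0429). The smallest p that 4 pups against 4 allow is 0.0286. The ratio of *Ptgs2* to *Ptgs1* was 36.2, 35.9, 24.0 and 37.4 in mutants and 17.2, 18.4, 11.1 and 27.4 in wild types. Mutant 3 fell below wild type 4, which carries another label prefix, while within each prefix every mutant lay above every wild type. Over all 8 libraries the log2 difference of 0.90 did not pass (exact two-sided permutation p = 0.0571, adjusted p = 0.0571). Without wild type replicate 4 it was 1.11 and passed (exact permutation, adjusted p = 0.0429). The call of *Edn1* to *Ece1* was lost without any of the 4 wild types, and that of *Ddah1* to *Nos3* without wild type 1, 2 or 3 (exact permutation, adjusted p up to 0.0857), with differences of like size.

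**Figure D5:**
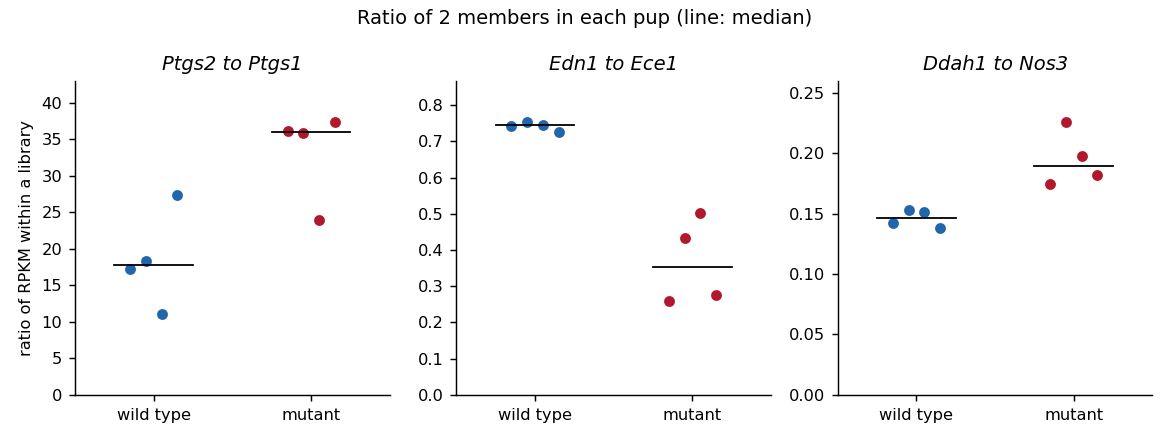
Ratio of the RPKM of 2 members in each pup, with lines at the group medians. The ratio of *Edn1* to *Ece1* separates the groups, with the mutants at 0.260 to 0.502 and the wild types at 0.724 to 0.753, and the ratio of *Ptgs2* to *Ptgs1* overlaps.

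Per length, the order in wild-type ECs was *Nos3* (174 ± 17.1 RPKM), *Ece1* (103 ± 10.3), *Edn1* (76.6 ± 7.86), *Ptgs2* (61.0 ± 9.56), *Ace* (40.5 ± 6.25), *Ptgis* (27.1 ± 3.34), *Npr1* (25.9 ± 1.57), *Ddah1* (25.4 ± 2.33), *Ednrb* (3.72 ± 1.17) and *Ptgs1* (3.55 ± 1.12, all SD, n = 4). Ranges overlapped between the neighbours *Edn1* and *Ptgs2*, *Ptgis* and *Npr1*, *Npr1* and *Ddah1*, and *Ednrb* and *Ptgs1*. In mutant ECs *Ptgs2* led with 190 ± 29.0 RPKM, ahead of *Ece1* (121 ± 14.4) and *Nos3* (119 ± 9.11), which overlapped. *Ptgis* (46.2 ± 5.30) and *Edn1* (43.6 ± 11.6) followed and overlapped, as did *Edn1* and *Ace* (38.0 ± 4.76), *Ace* and *Npr1* (29.2 ± 4.08), and *Npr1* and *Ddah1* (23.3 ± 4.58). *Ednrb* (6.87 ± 2.10) and *Ptgs1* (5.80 ± 0.988, all SD, n = 4) stayed last.

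The sample labels carry 3 prefixes, 1 shared by replicates 1 and 2, 1 by replicate 3 and 1 by replicate 4 of both groups, and do not say what they stand for. All 6 called members kept their direction within each of the 3 prefixes, although a prefix with 1 library per group gives no test. The log2 ratio of *Ptgs2* was 1.66, 1.56 and 1.68, that of *Nos3* -0.62, -0.35 and -0.61, and that of *Ptgis* 0.67, 0.71 and 1.03. *Edn1* varied most in size, with -0.88, -0.31 and -1.26. For *Ednrb* the values were 1.03, 0.33 and 1.18, and for *Ptgs1* 0.64, 0.44 and 1.23. The prefix of replicate 3 gave the smallest difference of the 3 for each called member but *Ptgis*. By the methods, wild-type pups were matched in number to mutants within litters. The study's results state that all libraries were prepared and sequenced together.

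Likeness was measured as the root mean square difference in log2 CPM (counts scaled to library size) over the 8 libraries, after each gene was centred on its own mean, among 14261 protein-coding genes. For *Nos3* the nearest genes were *Nxpe2* (0.031) and *App* (0.046), and for *Edn1* they were *Lama1* (0.077) and *Dclre1a* (0.080). *S100a11* and *Creb3l2* (0.15 each) were nearest to *Ptgs2*, with log2 fold changes of 1.54 and 1.61. *Gnl3l* (0.078) and *Plk4* (0.087) were nearest to *Ptgis*, *Gng10* (0.077) and *Shd* (0.13) to *Ptgs1*, and *Sgpl1* (0.13) and *Rab8b* (0.14) to *Ednrb*. The EC receptor gene *Tie1* (0.023) was nearest to *Ece1*. These distances have to be read against the root mean square of each member about its own mean. It was 0.18 for *Ece1*, 0.30 for *Nos3*, 0.41 for *Ptgis* and 0.47 for *Ptgs1*. For *Edn1* it was 0.50, for *Ednrb* 0.58 and for *Ptgs2* 0.84. No member was among the 2 nearest genes of another member. With only 2 of 14261 genes taken for each, this was likely beforehand and does not show that the members vary apart.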

How the data were processed

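RNA from CD31-bead-isolated brain ECs of 4 mutant and 4 wild-type pups was measured as poly(A) RNA libraries, grouped by the sample titles. Per the labels and methods, the authors trimmed the reads, mapped them to GRCm38 with STAR and deposited whole-number counts per gene, not normalized. The counting program, annotation release and strand setting are not given in the sources used here. A second deposited table, normalized by the authors with DESeq2, was not used. Of 49315 identifiers, 49056 had a symbol in GENCODE vM21. Counts were filtered with filterByExpr (minimum count 10), scaled by TMM and tested with glmQLFit and glmQLFTest in edgeR 4.0.16 (R 4.3.3), with Benjamini-Hochberg adjustment over all genes tested and a threshold of 0.05. Standard errors are the log2 fold change over the root of F. The labels name no litter for a library, and p-values measure the spread between these pups. Pooled over genes, libraries of a group differed by more than sampling noise (chi-square per degree of freedom of 7.27 or more). This pooled value does not describe single genes of low count, where counting error can matter.

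The members and gene lists were chosen with earlier results of these data known. All members were named, and of the pathway lists all called genes with an absolute log2 fold change over 1. Other genes were chosen after their values were seen. On counts simulated for 16609 genes of this comparison, 75 of 100 genes changed 1 log2 unit and 97 of 100 changed 2 log2 units were called, with 7 unchanged genes called. The simulation changed far fewer genes than the 44.4% called in the data, and none by under 1 log2 unit. Its shares therefore need not hold for this comparison. Alternatives were DESeq2 1.42.0, other normalizations and filters, blocks and left-out libraries. Leaving out both libraries of the prefix of replicate 3 was chosen after seeing the data.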

Additional observations from a re-analysis of the deposited data

Results flagged for a closer look

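Among 48 groups of 4 values (members, pair ratios and the pathway genes that changed more than 2-fold), 5 held a library far from the other 3, where chance flags about 1 in 20. *Npr1* had 5003 normalized counts in mutant replicate 1, against 3763 to 3911 in the other mutants. The ratio of *Ptgs2* to *Ptgs1* was 24.0 in mutant replicate 3, against 35.9 to 37.4. *Slco2a1* had 7173 normalized counts in mutant replicate 3, against 8999 to 9073. In wild type replicate 3, *Ass1* had 439 normalized counts, against 552 to 574 in the other wild types, and *Edn3* had 862, against 1172 to 1223. Replicate 3 of each group held the largest summed microglia and macrophage markers of its group, and their part in these values was not tested.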

How the results depend on the processing

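All 10 members kept the sign of their log2 fold change under all 17 alternatives, and the 6 called members kept their call in each. *Ece1* passed the threshold with the replicate number (0.22, edgeR adjusted p = 0.0233) or the label prefix (0.22, edgeR adjusted p = 0.0188) as a block and in no other alternative. The deviations of same-numbered libraries from their group means had correlations of 0.201, 0.210, 0.290 and 0.0241 over 16887 genes. Crossed pairs within the prefix of replicates 1 and 2 had 0.165 and 0.253. All crossed pairs ran from -0.358 (mutant 1 with wild type 3) to 0.384 (mutant 4 with wild type 3). The main test did not take the numbers as pairs. With the replicate block 3973 genes were higher and 4189 lower, against 3631 and 3873 without it. *Ptgs1* came nearest to losing its call without wild type replicate 1 (edgeR adjusted p = 0.0499). Members higher by over 2-fold numbered 1 to 2 with each library left out and 2 without both libraries of the prefix of replicate 3, the added one being *Ednrb*. With at least 10 counts required in every library, 873 genes were lower by over 2-fold, against 1360, and 758 were higher by that much, against 996. That filter leaves out any gene with under 10 counts in a library. Left-out libraries gave log2 differences of 0.68 to 1.11 for *Ptgs2* to *Ptgs1*, -1.24 to -0.92 for *Edn1* to *Ece1* and 0.34 to 0.46 for *Ddah1* to *Nos3*, with exact permutation adjusted p from 0.0429 to 0.0857. With 1 added to each RPKM the *Ptgs2* to *Ptgs1* difference was 1.03 and passed (exact permutation, adjusted p = 0.0286). The paired sign-flip test of the same differences, -1.07 and 0.41 for the other pairs, cannot go below an exact p of 0.125. The *Ptgs2* to *Ptgs1* and *Ddah1* to *Nos3* ratios were higher in the mutant, and *Edn1* to *Ece1* lower, in 4 of 4 same-numbered pairs. Of the 28 called pathway genes, *Nos1*, *Ptger4*, *Tbxa2r*, *Aplnr* and *Gch1* lost their call in some alternative and none changed sign.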

Other observations

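Noncoding transcripts beside *Ptgs2* and *Nos3* moved in the direction of their neighbours. *Ptgs2os*, a noncoding gene that holds 183 of the 250 bases shown before *Ptgs2* and shares no exon bases with it, had 72.0, 49.6, 76.3 and 116 normalized counts in mutants and 12.9, 27.2, 28.5 and 35.8 in wild types. It was higher in all 4 mutants, and its fitted log2 difference was 1.59 (edgeR adjusted p = 0.00357), beside 1.64 for *Ptgs2*. *Gm15587*, antisense to *Nos3*, had a log2 fold change of -0.97, beside -0.55 for *Nos3*. Both transcripts were chosen after their values were seen, and since the use of strand in counting is not given in the sources used here, reads of *Gm15587* and *Nos3* cannot be told apart where their exons overlap.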
